A study of Mus musculus with 12 samples.

Results

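The muscle ubiquitin ligase genes described here are 10 genes chosen by symbol: Trim63, Trim54, Trim55, Fbxo32, Fbxo30, Fbxo40, Fbxo44, Fbxl22, Asb2 and Mdm2. All 10 symbols matched a record among the 54146 gene records of the deposited count tables, and all 10 were among the 15477 genes with enough counts to be tested. Polyadenylated RNA from mouse hearts was sequenced as 12 libraries, 4 in each of 3 groups, all from 6 weeks after surgery. Sham WT are wild-type mice that had sham surgery. TAC WT are wild-type mice whose aortic arch was narrowed (transverse aortic constriction, TAC), which loads the left ventricle with pressure. TAC KO are Nron knockout mice with the same TAC surgery, Nron being a long noncoding RNA. The strain, sex, age and the kind of knockout allele are not given in the sources used here, and a sham-operated knockout group was not analysed here. No label says whether the libraries of a group came from separate animals, so the p-values reflect only how far these samples spread, which may be technical. Replicate numbers follow accession order and name a library only.

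Ubiquitin ligases choose which proteins a cell marks with ubiquitin, and most of the marked proteins are then degraded by the proteasome. In heart and skeletal muscle, a small set of ligases acts on the contractile apparatus and on the signalling proteins that set muscle size. The genes fall into 4 kinds. Trim63 (MuRF1), Trim55 (MuRF2) and Trim54 (MuRF3) encode RING-finger ligases of the sarcomere. Fbxo32 (atrogin-1), Fbxo30, Fbxo40, Fbxo44 and Fbxl22 encode F-box proteins, the subunits that carry substrates to cullin-1 ligases. Asb2 encodes a substrate adaptor of cullin-5 ligases known for the turnover of filamins, and Mdm2 encodes the RING ligase of p53. Trim63 and Fbxo32 are the classic genes of muscle wasting and are known targets of FoxO transcription factors, which the kinase Akt restrains.

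The upstream DNA of 5 genes is printed because these genes carry the main results below: Trim63 and Asb2, which were lowest in TAC WT, Fbxo40, which was highest there, Trim54, which was higher in both TAC groups than in Sham WT, and Fbxo44, which was highest in TAC KO. Each is the 250 bases before a RefSeq start on GRCm38.p6, 5′ to 3′ on the strand of the gene, and none of these 5 windows holds an annotated exon of the gene. The windows are chr4:134314870-134315119 (plus strand) for Trim63, chr12:103356002-103356251 (minus strand) for Asb2, chr16:36990468-36990717 (minus strand) for Fbxo40, chr5:31116362-31116611 (plus strand) for Trim54, and chr4:148158824-148159073 (minus strand) for Fbxo44. For Fbxo44 this is 1 of 3 RefSeq starts, shown because the windows of the other starts run into exons. It is the innermost of the 3, so its window lies inside the annotated gene (chr4:148152800-148160482). The Fbxo44 letters are therefore DNA between annotated exons of the gene, and they are not upstream of its other starts. The Trim54 RefSeq start, chr5:31116612, lies before the first annotated base of the gene, chr5:31116712. The bases that follow this RefSeq start were in no annotated Trim54 transcript, so the window does not adjoin the annotated gene. Capitals mark matches, on either strand, to 5 motifs.
Trim63: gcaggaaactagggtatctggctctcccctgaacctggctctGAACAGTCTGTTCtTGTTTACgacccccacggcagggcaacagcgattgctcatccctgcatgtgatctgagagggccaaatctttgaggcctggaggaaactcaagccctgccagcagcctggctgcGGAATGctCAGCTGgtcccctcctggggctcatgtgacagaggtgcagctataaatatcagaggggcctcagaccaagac
Asb2: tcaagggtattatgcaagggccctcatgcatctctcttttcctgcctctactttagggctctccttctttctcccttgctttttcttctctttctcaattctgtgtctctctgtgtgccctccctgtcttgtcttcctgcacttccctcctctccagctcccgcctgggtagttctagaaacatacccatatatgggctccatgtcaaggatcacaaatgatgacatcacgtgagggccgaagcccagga
Fbxo40: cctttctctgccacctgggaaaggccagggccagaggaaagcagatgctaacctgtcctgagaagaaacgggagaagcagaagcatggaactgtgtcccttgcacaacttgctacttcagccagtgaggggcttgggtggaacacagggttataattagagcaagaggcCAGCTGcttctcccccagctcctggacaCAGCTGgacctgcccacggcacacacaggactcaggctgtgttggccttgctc
Trim54: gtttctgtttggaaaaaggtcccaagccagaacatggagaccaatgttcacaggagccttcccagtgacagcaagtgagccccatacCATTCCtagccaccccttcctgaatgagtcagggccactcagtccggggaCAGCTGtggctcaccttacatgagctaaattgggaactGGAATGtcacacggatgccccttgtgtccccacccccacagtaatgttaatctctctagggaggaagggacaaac
Fbxo44: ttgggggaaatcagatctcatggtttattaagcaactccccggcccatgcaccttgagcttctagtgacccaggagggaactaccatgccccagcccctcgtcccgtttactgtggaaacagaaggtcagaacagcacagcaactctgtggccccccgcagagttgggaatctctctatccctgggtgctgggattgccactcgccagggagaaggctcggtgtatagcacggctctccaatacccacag

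RefSeq windows were found for 8 of the 10 genes, 12 windows in all, and the remaining genes are Trim55 and Fbxo32. The FoxO motif GTAAACA was in 3.17% of 32851 windows of all genes, and the windows of Trim63 and Mdm2 held it. In Trim63 it begins 194 bases before the start on the opposite strand, 1 base after a palindrome of the kind the glucocorticoid receptor binds (GAACA, any 3 bases, TGTTC), which begins 208 bases before the start. That palindrome was in 0.0396% of all windows, and its letters were chosen with the Trim63 window in view. The E-box CAGCTG, the kind of site bound by muscle bHLH factors, was in 13.0% of windows and was held by Trim63, Trim54, Mdm2 and Fbxo40, with a pair of copies 81 and 53 bases before the first Fbxo40 start. The MCAT motif GGAATG of TEAD factors was in 12.6% of windows and was held by Trim63, Trim54, Fbxl22 and another Fbxo44 start. The MEF2 motif (CTA, any 4 bases, TAG) was in 3.2% of windows and in none of these. No matches printed above overlap one another. A match is a run of letters, and binding was not measured.

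Library totals were 26288519 to 35945770 counts, and genes with at least 1 count numbered 21642 to 22597 per library. Levels are given as CPM, counts scaled to a common library size, after TMM scaling, which adjusts each library for its composition. Cell marker levels and the limit for 0 counts are instead CPM of the plain library totals, without TMM scaling. The group means of the marker Des are TMM-scaled. The limit that 0 counts allow (3 counts, counting error only) lay between 0.083 and 0.114 CPM. The 10 genes lay far above this, with raw counts from 128 for Fbxo32 to 22166 for Asb2. Both annotated Nron records were at 0 counts throughout, so the knockout label could not be checked. The summed level of 12 cardiomyocyte markers was 85090 to 90830 CPM in Sham WT, 77290 to 80550 CPM in TAC WT and 80390 to 87860 CPM in TAC KO. Of the 12, 3 fell (Pln, Tnni3 and Myh6) and 0 rose in TAC WT against Sham WT, where 19.7% of tested genes were called. In TAC KO against TAC WT 3 rose (Myl3, Tnni3 and Pln) and 0 fell, where 33.0% were called. In TAC KO against Sham WT 2 rose and 3 fell, where 27.6% were called. The part of cardiomyocyte content in the ligase values was not tested. Of 8 atrial markers, Sln, Bmp10 and Myl7 were at or near 0 in every library. The sum of the 8 was 1076 to 1247 CPM in Sham WT, 3990 to 6003 CPM in TAC WT and 1730 to 2137 CPM in TAC KO. Most of it was Nppa and Pam. Nppa alone was 316 to 526, 2768 to 4951 and 962 to 1301 CPM in the same order. Myl4 was 2.03 to 2.72, 1.92 to 2.48 and 1.57 to 2.24 CPM. Of the 5 tested, Nppa (3.19), Pam (0.54) and Dkk3 (1.64) rose in TAC WT against Sham WT and Tbx5 fell, and Nppa and Pam were lower in TAC KO than in TAC WT. The part of atrial tissue in the ligase values was not tested. In bulk tissue, fewer cells of a type and less RNA per cell cannot be told apart.

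Compared per length of annotated exon, the 10 genes spanned more than 2 orders of magnitude. In Sham WT, Trim54 stood at 185 ± 13.9 CPM per kb (SD, n = 4) and Asb2 at 158 ± 19.3 CPM per kb, and their libraries overlapped. Trim63 followed at 68.0 ± 3.98, Fbxo40 at 49.0 ± 2.60, Trim55 at 35.6 ± 3.89, Fbxl22 at 17.1 ± 2.41 and Mdm2 at 12.9 ± 0.351 CPM per kb, each below its upper neighbour with no overlap of libraries. The lowest were Fbxo30 at 6.20 ± 0.295, Fbxo44 at 2.78 ± 0.305 and Fbxo32 at 1.45 ± 0.209 CPM per kb. The message of the best known atrophy F-box gene, Fbxo32, was thus the least abundant of the 10 in each group, and that of Trim54 the most abundant. The order changed in 2 places between groups. In TAC WT, where Fbxl22 and Mdm2 overlapped, Fbxo40 (74.4 ± 11.1 CPM per kb) stood above Trim63 (58.0 ± 5.38) without overlap, and in TAC KO, Fbxo44 (5.91 ± 0.523) stood above Fbxo30 (5.31 ± 1.13) with overlapping libraries. Trim63 and Fbxo40 also overlapped in TAC KO. With the longest transcript as the length, Trim63 stayed above Fbxo40 in TAC WT at 87.4 against 79.9 CPM per kb, with overlapping libraries, so that change of order depends on the length used. With the same length, Asb2 stood above Trim54 and Mdm2 above Fbxl22 in Sham WT.

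**Figure D1:**
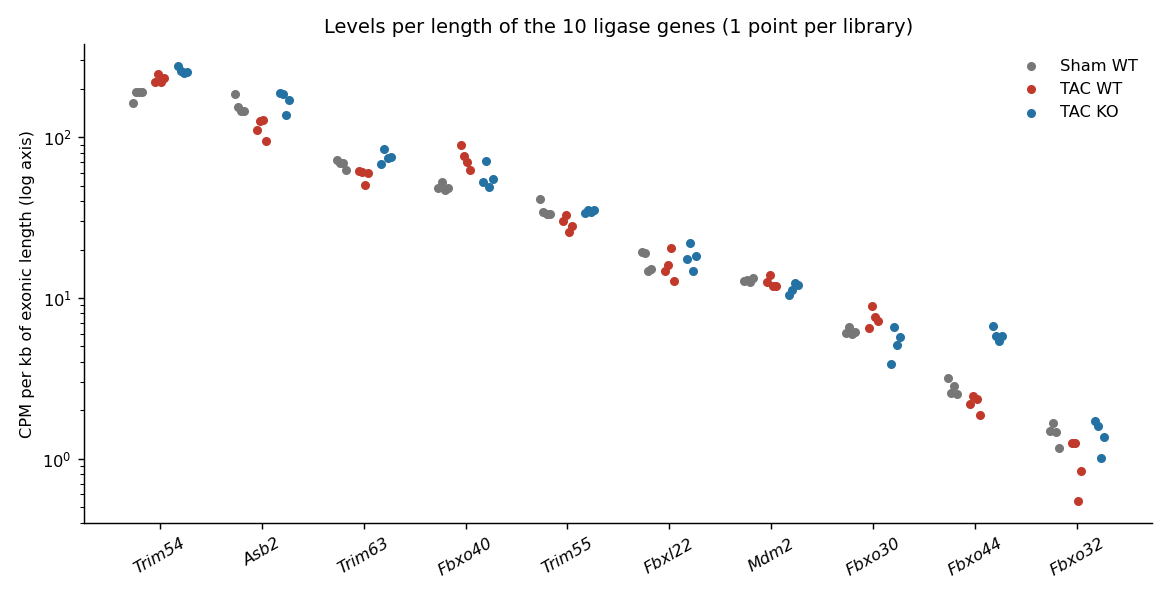
Levels of the 10 ligase genes in CPM per kb of exonic length on a log axis, 1 point per library, coloured by group. Trim54 and Asb2 lie at the top, at 95.1 CPM per kb or more in every library, and Fbxo32 lies at the bottom, below every other gene's mean.

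Spread within groups also differed between the genes. The coefficient of variation (SD over mean) was 2.72% for Mdm2 in Sham WT and 2.33% for Trim55 in TAC KO, against 35.6% for Fbxo32 in TAC WT. Fbxo32 was also the gene with the fewest counts.

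What pressure load did to these genes in wild-type hearts was addressed by setting TAC WT against Sham WT. Fbxo40 and Trim54 rose, and Asb2, Trim55 and Fbxo44 fell. These are 5 of 10 genes called by edgeR's quasi-likelihood test at a Benjamini-Hochberg adjusted p under 0.05, where 19.7% of all tested genes were called. The 2 that rose stand against 9.67% of tested genes called higher, and the 3 that fell against 10% called lower. In 6 of the 10 the libraries of the 2 groups did not overlap, against 24.7% of all tested genes. The median log2 fold change of the 10 genes was -0.16, against -0.0004 over all tested genes, and the median absolute log2 change was 0.30 against 0.17.

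How knockout hearts differed under the same load was addressed by setting TAC KO against TAC WT. Fbxo44, Asb2, Trim63 and Trim55 were higher in TAC KO, and Fbxo30 and Fbxo40 were lower. These 6 calls stand against 33.0% of all tested genes called, the 4 higher against 15.7% called higher, and the 2 lower against 17.3% called lower. The 5 genes without overlap between groups stand against 28.5%. The median log2 fold change was 0.21 over the 10 genes and -0.002 over all, with median absolute changes of 0.38 and 0.22. Both comparisons use the same 4 TAC WT libraries, so a low or high TAC WT value enters both with opposite sign.

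TAC KO and Sham WT differ in surgery and genotype together, and these cannot be told apart here. Fbxo44 and Trim54 were higher in TAC KO, 2 of 10, where 27.6% of all tested genes were called, 12.8% higher and 14.8% lower, and the other 8 genes did not pass. The libraries of 3 genes (Trim54, Fbxo44 and Mdm2) did not overlap, against 30.7% of all tested genes. The median absolute change of the 10 genes, 0.16, was below the 0.20 of all tested genes.

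**Figure D2:**
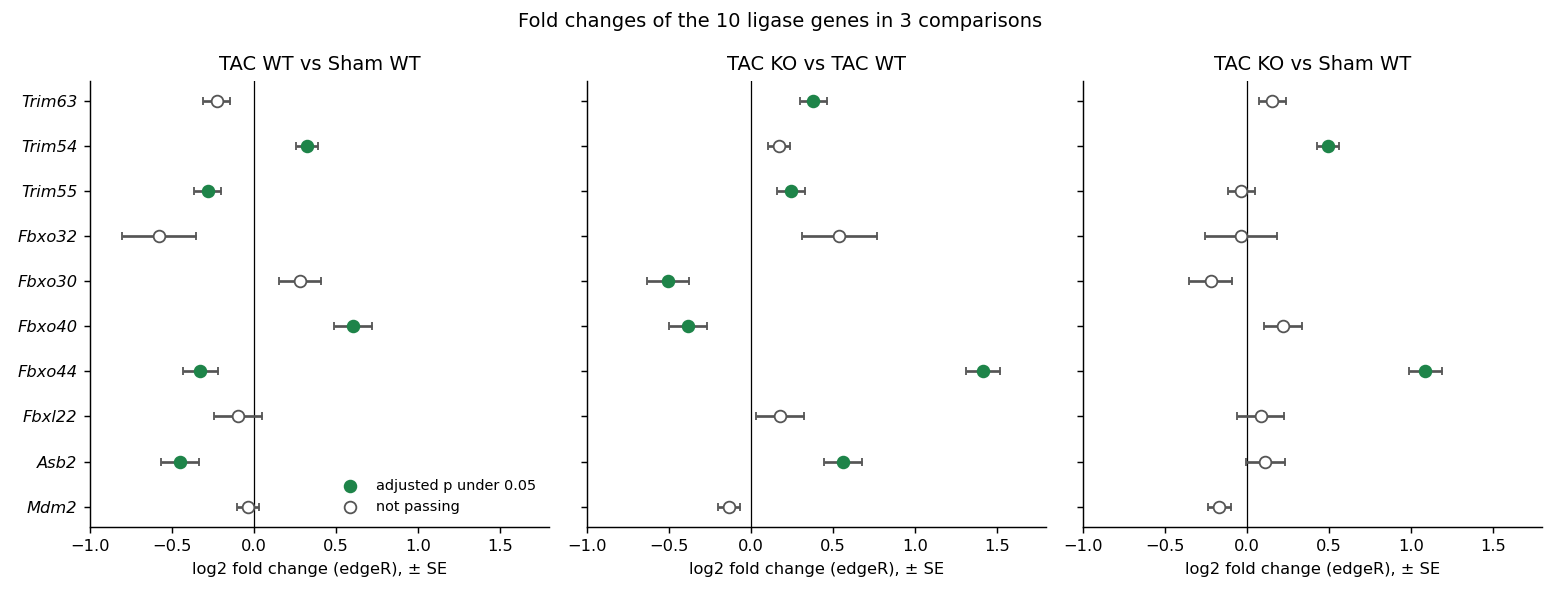
Log2 fold changes of the 10 genes (edgeR, with standard errors) in the 3 comparisons, with called genes marked. The point for Fbxo44 in TAC KO against TAC WT, at 1.42, lies farthest from 0, and Asb2, Trim63 and Trim55 lie on opposite sides of 0 in the first 2 comparisons, which share the TAC WT libraries.

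Among the sarcomeric RING ligases, Trim63 encodes MuRF1, which ubiquitinates sarcomere proteins such as myosin heavy chain and troponin I. Trim63 (ENSMUSG00000028834.13, chr4:134315120-134329629, plus strand, GRCm38) measured 204, 196, 196 and 177 CPM in Sham WT, 176, 172, 142 and 169 CPM in TAC WT, and 192, 241, 211 and 214 CPM in TAC KO. All TAC WT libraries were below all others, and Sham WT and TAC KO overlapped. The log2 fold change was -0.23 (SE 0.08) in TAC WT against Sham WT, which did not pass (adjusted p = 0.0633, edgeR), although DESeq2 gave 0.048 and limma voom 0.0479, within 0.0479 to 0.178 over the 16 alternatives. TAC KO was higher than TAC WT by 0.38 (SE 0.08, adjusted p = 0.00322), or 1.3-fold, and higher in 4 of 4 libraries. This call held under every alternative tried, with log2 values from 0.27 to 0.43.

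Trim55 encodes MuRF2, a close relative that binds microtubules and the sarcomeric M-band. Trim55 (chr3:19644474-19692421, plus strand) measured 109.9, 91.5, 89.0 and 87.9 CPM in Sham WT, 80.3, 87.6, 68.7 and 74.3 CPM in TAC WT, and 90.1, 94.2, 90.5 and 93.9 CPM in TAC KO. The TAC WT libraries were again the lowest, narrowly so for TAC WT 2 at 87.6 CPM, and the 4 TAC KO libraries lay close together. It fell by 0.28 (SE 0.08, adjusted p = 0.0268) in TAC WT and was higher in TAC KO than in TAC WT by 0.25 (SE 0.08, adjusted p = 0.0351). Both calls were lost when certain single libraries were left out, and adjusted p over the 16 alternatives ran from 0.00873 to 0.098 for the first and from 0.0123 to 0.0959 for the second. The first was lost without Sham WT 1 (log2 -0.19, adjusted p = 0.098), Sham WT 2 (0.0517), TAC WT 3 (0.0731) or TAC WT 4 (0.0757). The second was lost without TAC WT 1, 3 or 4 or TAC KO 1, 2 or 4 (adjusted p from 0.0519 to 0.0959).

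Trim54 encodes MuRF3, which stabilises microtubules in muscle cells, and it was the MuRF gene that rose after constriction. Trim54 (chr5:31116712-31137630, plus strand) measured 235, 275, 275 and 275 CPM in Sham WT, 316, 354, 318 and 337 CPM in TAC WT, and 399, 370.4, 362 and 364 CPM in TAC KO. The 3 groups did not overlap, in the order Sham WT, TAC WT, TAC KO. TAC WT was higher than Sham WT by 0.32 (SE 0.07, adjusted p = 0.00395), or 1.25-fold, and TAC KO than Sham WT by 0.50 (SE 0.07, adjusted p = 0.000194), or 1.41-fold. The latter was 0.30 (adjusted p = 0.00691, the highest of the 16 alternatives) when GC and length trends were removed, and the former was 0.29 to 0.33 under the alternatives that kept every library. Between TAC KO and TAC WT the log2 difference of 0.17 (SE 0.07) did not pass (adjusted p = 0.0582), passed under DESeq2 (0.0261), and became -0.0255 (adjusted p = 0.816) when trends with GC content and length were removed. It also passed with RLE (0.0493) or upper-quartile scaling (0.0277) and without TAC WT 2 (0.036), and the 16 alternatives ran from 0.0261 to 0.816. An antisense gene, Gm15469, shares 382 exonic bases with Trim54 and had 39 counts over the 12 libraries.

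**Figure D3:**
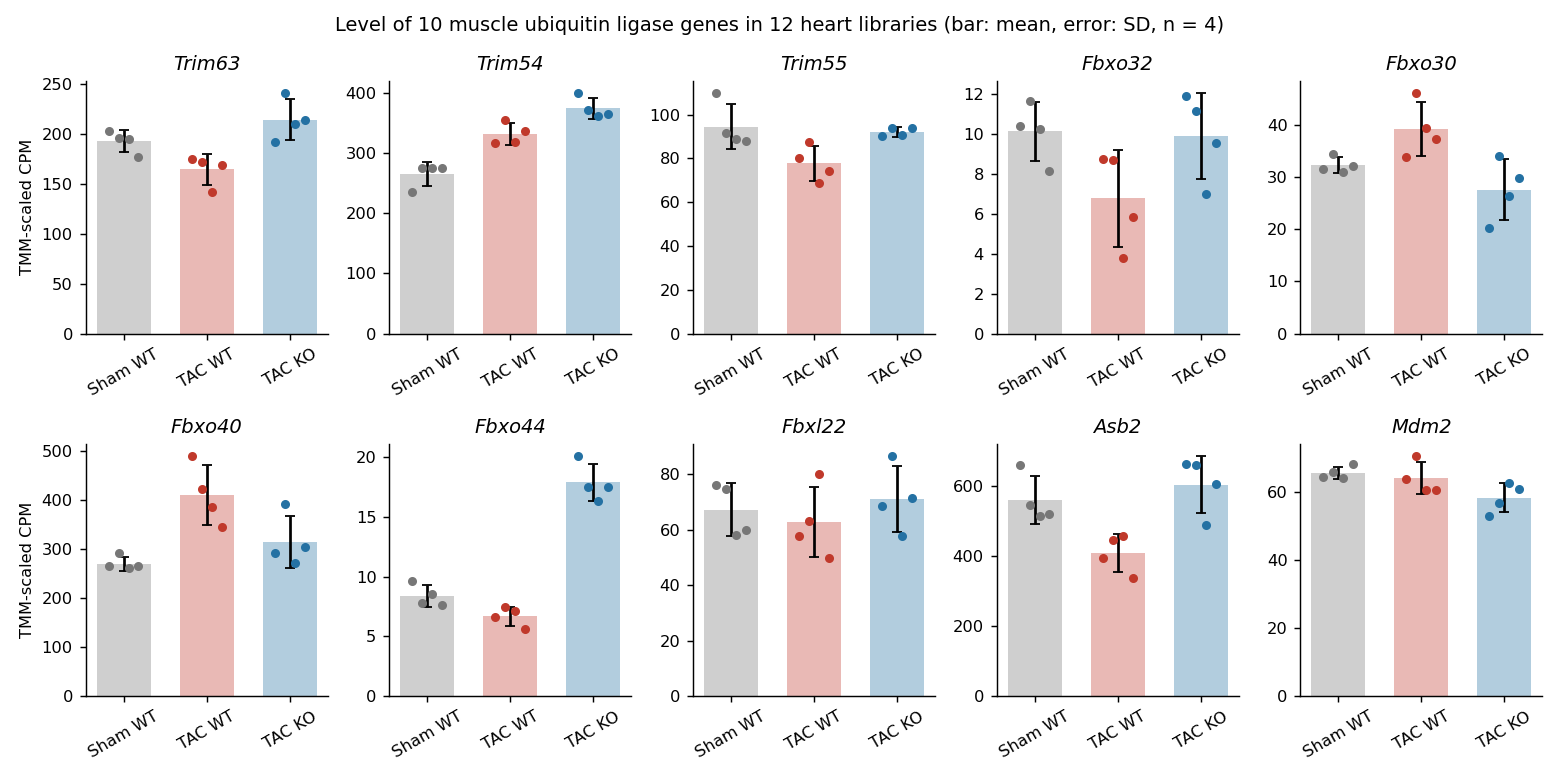
TMM-scaled CPM of each of the 10 genes in the 12 libraries, with bars for group means and error bars for SD (n = 4). In the panel for Trim54 the 3 groups step upward without overlap, in those for Trim63 and Trim55 the TAC WT points are the lowest, and in that for Fbxo44 the TAC KO points, 16.4 to 20.1 CPM, lie above all others.

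Of the F-box genes, Fbxo44 showed the largest difference of the 10. It encodes an F-box protein of the FBA-domain family, whose best known members bind glycoproteins. Fbxo44 (chr4:148152800-148160482, minus strand, GRCm38) measured 9.63, 7.76, 8.57 and 7.63 CPM in Sham WT, 6.59, 7.42, 7.09 and 5.62 CPM in TAC WT, and 20.1, 17.5, 16.4 and 17.5 CPM in TAC KO. All 4 TAC KO libraries stood above all 8 wild-type libraries, and all TAC WT libraries stood below all Sham WT libraries. TAC KO was higher than TAC WT by 1.42 (SE 0.11, adjusted p = 2.5e-06), or 2.67-fold. This difference ranked 9 of 15477 tested genes by p, and 1.4% of tested genes were called higher by at least 2-fold, as was Fbxo44. TAC KO was higher than Sham WT by 1.09 (SE 0.10, adjusted p = 1.96e-05), or 2.12-fold, where 1.6% of tested genes were called higher by at least 2-fold. Both held under every alternative tried, at log2 1.24 to 1.47 and 0.91 to 1.16. The decrease in TAC WT against Sham WT, by 0.33 (SE 0.11, adjusted p = 0.043), did not hold without Sham WT 1, 2 or 3 or TAC WT 1, 3 or 4 (adjusted p from 0.0507 to 0.135). It did not hold with the 2 groups fitted alone (0.0554), and the lowest adjusted p of the 16 alternatives was 0.0238. Fbxo44 rests on raw counts of 153 to 611 per library.

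Fbxo40 encodes a muscle-restricted F-box protein known for the degradation of insulin receptor substrate 1 in skeletal muscle. Fbxo40 (chr16:36963460-36990467, minus strand) measured 265, 292, 260.5 and 265 CPM in Sham WT, 490.2, 422, 385 and 346 CPM in TAC WT, and 292, 393, 271 and 304 CPM in TAC KO. Every TAC WT library was above every Sham WT library, and TAC KO 2, at 393 CPM, lay inside the TAC WT range. It rose by 0.60 (SE 0.12, adjusted p = 0.00231) in TAC WT, or 1.52-fold, the largest increase of the 10 in that comparison, and this held under every alternative tried, at 0.51 to 0.68. TAC KO was lower than TAC WT by a log2 change of -0.38 (SE 0.12, adjusted p = 0.0204). That call was lost without TAC WT 1 (log2 -0.29, adjusted p = 0.0756), TAC KO 1 (0.0586) or TAC KO 3 (0.0549), with the 2 groups fitted alone (0.0515) and when trends with GC and length were removed (0.054). Over the 16 alternatives adjusted p ran from 0.00257 to 0.0756.

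Fbxo30 encodes MUSA1, an F-box protein that is held down by BMP signalling in muscle. Fbxo30 (chr10:11281330-11298052, plus strand) measured 31.5, 34.5, 31.0 and 32.0 CPM in Sham WT, 33.9, 46.1, 39.3 and 37.3 CPM in TAC WT, and 20.1, 34.1, 26.4 and 29.7 CPM in TAC KO. TAC KO 2, the highest of its group, overlapped TAC WT 1, the lowest of its own. TAC KO was lower than TAC WT by a log2 change of -0.50 (SE 0.13, adjusted p = 0.00858). Removing the GC and length trends gave -0.22 (adjusted p = 0.161), the highest of the 16 alternatives, whose lowest was 0.000501. The TAC WT against Sham WT difference of 0.28 (SE 0.13) did not pass (adjusted p = 0.141), and passed with the 2 groups fitted alone (0.0385), the lowest of alternatives that reached 0.312.

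Fbxo32 encodes atrogin-1, which in heart muscle is known to bind calcineurin. Fbxo32 (chr15:58175879-58214932, minus strand) measured 10.4, 11.7, 10.3 and 8.14 CPM in Sham WT, 8.72, 8.71, 3.78 and 5.84 CPM in TAC WT, and 11.9, 11.1, 7.01 and 9.53 CPM in TAC KO. TAC WT held the lowest values, TAC WT 3 and 4, and its other libraries lay within the ranges of both other groups. The log2 differences were -0.58 (SE 0.23, adjusted p = 0.0857) for TAC WT against Sham WT and 0.54 (SE 0.23, adjusted p = 0.0798) for TAC KO against TAC WT, and neither passed. Both passed under DESeq2 (0.0469 and 0.0446), without the low-count filter (0.0163 and 0.0204) and without TAC WT 2 (0.0435 and 0.0425). The second also passed without TAC WT 1 (0.0495), without TAC KO 3 (0.0326) and, at 0.73, when GC and length trends were removed (0.0277). Without TAC WT 3 the log2 values were -0.38 (0.183) and 0.34 (0.184), more than 1.5 times smaller. The alternatives ran up to 0.204 for the first and 0.202 for the second. Fbxo32 shares 3.05% of its 50-base stretches with other annotated genes.

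Fbxl22 encodes a leucine-rich F-box protein of the cardiac sarcomere known to act on alpha-actinin and filamin C. Fbxl22 (chr9:66508459-66514593, minus strand) measured 58.2 to 76.1 CPM in Sham WT, 49.9 to 80.0 CPM in TAC WT and 57.6 to 86.5 CPM in TAC KO. The 3 ranges overlapped throughout, and no comparison passed (log2 -0.10, 0.18 and 0.08, lowest adjusted p = 0.369). It shares 317 exonic bases with Herc1 on the opposite strand. As the strand setting of the counting is not given in the sources used here, reads of both genes in that stretch cannot be told apart.

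Asb2 brings filamins and other substrates to cullin-5 ligases and is among the most abundant of the 10 messages. Asb2 (chr12:103321142-103356001, minus strand) measured 659, 545, 512 and 518 CPM in Sham WT, 394, 445, 456 and 337 CPM in TAC WT, and 663, 659, 486 and 604 CPM in TAC KO. All TAC WT libraries lay below all libraries of the other groups, whose ranges overlapped. It fell by 0.45 (SE 0.12, adjusted p = 0.0138) in TAC WT and was higher in TAC KO than in TAC WT by 0.56 (SE 0.12, adjusted p = 0.00258), or 1.48-fold. Both calls held under every alternative tried, at -0.51 to -0.36 and 0.40 to 0.65.

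Mdm2 encodes the ligase that keeps p53 low, and it passed in no comparison. Mdm2 (chr10:117688875-117710758, minus strand) measured 64.5, 65.7, 64.1 and 68.1 CPM in Sham WT, 63.9, 70.6, 60.6 and 60.7 CPM in TAC WT, and 52.9, 56.8, 62.6 and 60.9 CPM in TAC KO. The 4 TAC KO libraries lay below the 4 Sham WT libraries, but the log2 difference of -0.17 did not pass (adjusted p = 0.0742), and neither did -0.04 and -0.13 in the other comparisons. Mdm2 shares 2.49% of its 50-base stretches with other annotated genes.

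The TAC KO libraries also differed from the others in how levels moved with base composition. Between the fifth of genes with the highest GC content and the fifth with the lowest, the median log2 level relative to the mean of the 12 libraries differed by 0.10 to 0.38 in TAC KO, and by -0.13 to -0.04 in the 8 wild-type libraries. Between the longest and shortest transcripts it differed by -0.23 to -0.13 in TAC KO and by -0.03 to 0.17 in the others. The GC difference was uneven within TAC KO, at 0.381 in TAC KO 1 against 0.116, 0.095 and 0.103 in TAC KO 2, 3 and 4. Trim54, Fbxo44 and Asb2 are in the fifth of highest GC, with 59.9%, 57.6% and 59.4% GC in the longest transcript, and Fbxo30 is in the lowest, with 38.2%. With the trends removed in each library, the TAC KO against TAC WT calls were Fbxo44 at 1.24 (adjusted p = 8.86e-06), Asb2 at 0.40 (0.0232), Trim63 at 0.27 (0.0361) and Fbxo32 at 0.73 (0.0277), all higher. Of all 15477 tested genes, 4040 were then called, 2127 of them higher, against 5110 called with the trends kept. Over the 16 alternatives the highest adjusted p was 5.9e-05 for Fbxo44, 0.0232 for Asb2 and 0.0361 for Trim63, and 0.202 for Fbxo32. The 2 genes called lower, Fbxo30 and Fbxo40, no longer passed, and Trim55 stood at 0.21 (0.0835). Whether the GC trend arose in the tissue or in the libraries was not tested.

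**Figure D4:**
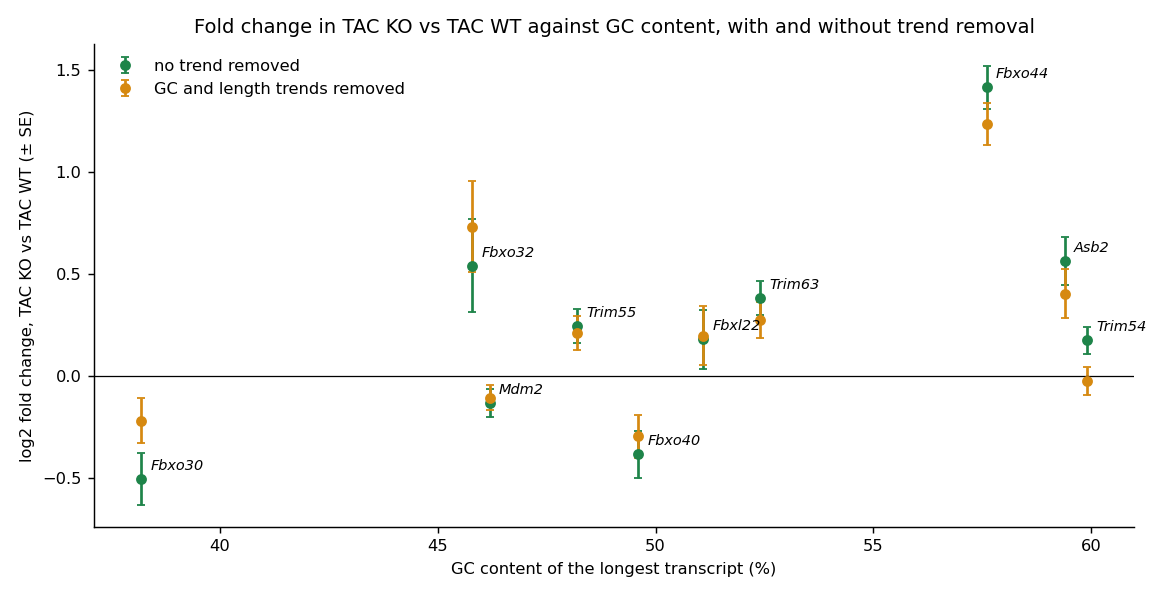
Log2 fold change of the 10 genes in TAC KO against TAC WT (with standard errors) plotted against the GC content of the longest transcript, before and after GC and length trends were removed. Fbxo30, at 38.2% GC, moved from -0.50 to -0.22, and Fbxo44, at 57.6% GC, from 1.42 to 1.24.

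Skeletal muscle expresses several of these genes strongly, and 1 library carried more skeletal muscle message than the rest. Leaving aside Ckm and Mybpc2, 10 skeletal muscle markers summed to 2.83 to 4.22 CPM in 11 libraries and to 25.7 CPM in TAC WT 4, which had 7.99 CPM of the fast myosin Myh4. Without TAC WT 4, Trim63 was higher in TAC KO than in TAC WT by 0.39 (adjusted p = 0.00752), Asb2 by 0.48 (0.00743) and Fbxo44 by 1.35, and Fbxo40 was lower by a log2 change of -0.46 (0.0109). Asb2 remained lower in TAC WT than in Sham WT, at -0.37 (0.0424), and Fbxo40 higher, at 0.68 (0.00169), against highest values over the alternatives of 0.0487 and 0.00947. Without TAC WT 4, 3 of the 10 genes were called in TAC WT against Sham WT, and Trim55 and Fbxo44 were the genes lost. Calls over all genes fell too, to 2339 of 15653 tested, from 3051 of 15477 with every library. Among other cell types, 7 of 12 fibroblast markers rose and 1 fell in TAC WT against Sham WT. Of 12 markers of smooth muscle or pericytes, 6 were higher and 1 lower in TAC KO than in TAC WT, 5 of 14 macrophage markers were higher, and 3 of 10 endothelial markers were lower. Their summed levels in Sham WT, TAC WT and TAC KO were 1039 to 1190, 1353 to 2129 and 1549 to 2220 CPM for fibroblast, and 3852 to 4007, 4889 to 5459 and 4463 to 5046 CPM for smooth muscle. In that last list 1 marker, Des, rose in TAC WT against Sham WT (2231 to 3481 CPM on average), Smtn (-0.61) and Abcc9 (-0.54) fell, and the median log2 change was -0.10. For macrophage markers they were 223 to 275, 211 to 319 and 299.5 to 409 CPM, and for endothelial markers 1398 to 1669, 1507 to 1907 and 1284 to 1451 CPM. The part of these cell types in the ligase values was not tested.

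The neighbours of Fbxo44 on chromosome 4 were examined after its values were seen. Of 22 other tested protein-coding genes with a start within 500 kb of its own, 8 were higher and 5 lower in TAC KO than in TAC WT. Over all tested genes 33.0% were called, 15.7% higher and 17.3% lower. The nearest, Fbxo6, another FBA-family F-box gene, was higher by 0.28 (adjusted p = 0.00331). Gm572 was higher by 1.04 (0.00191) and Zfp984 by 0.68 (0.00144). The natriuretic peptide genes Nppa and Nppb lie in the same stretch and were lower in TAC KO, at -1.70 (1.96e-05) and -1.15 (0.00582). The difference of Fbxo44 thus exceeded those of its 3 nearest tested neighbours, Fbxo6, Draxin and Mad2l2, the last at 0.35 (0.0111) and Draxin at -0.14 (0.84).

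**Figure D5:**
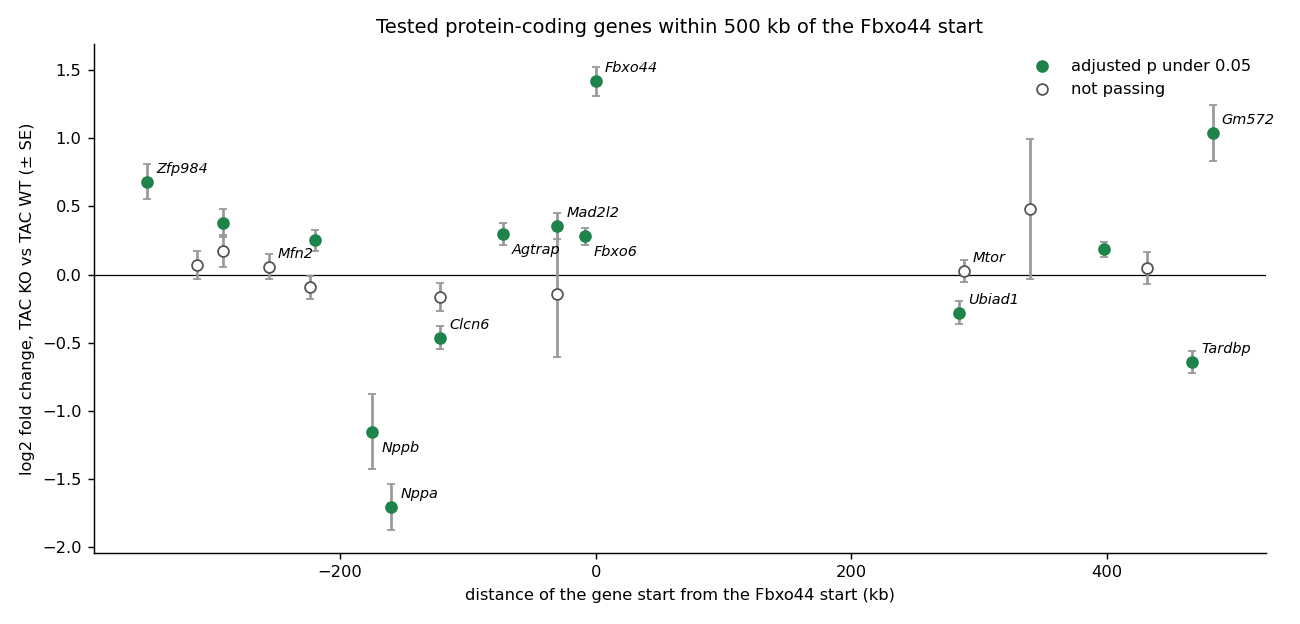
Log2 fold change in TAC KO against TAC WT (with standard errors) of tested protein-coding genes by distance of their start from the Fbxo44 start in kb. Fbxo44, at 1.42, is the highest point in the window, and Nppa, at -1.70, is the lowest.

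A list of 46 other ubiquitin ligases known in muscle and heart, of which 45 were tested, gave the setting for the 10 genes. In TAC WT against Sham WT 5 rose, 9 fell and 31 did not pass, with a median log2 change of -0.05 against -0.0004 over all tested genes. Rnf207, a cardiac RING protein that affects the HERG potassium channel, fell by 1.08 (SE 0.12, adjusted p = 5.57e-05). Set against TAC WT, TAC KO had 12 of them higher and 14 lower, and 19 did not pass, with Fbxo31 higher by 0.60 (adjusted p = 0.000464), Klhl38 by 1.79 (0.00109) and the caspase inhibitor Xiap lower, at -0.61 (0.000177). Klhl38 was scarce, at 0.46 ± 0.17 CPM in TAC WT and 1.6 ± 0.41 CPM in TAC KO (SD, n = 4), so its fold change rests on few counts. Against Sham WT, TAC KO had 4 higher and 8 lower, and 33 did not pass, Rnf207 again lower at -0.98 (0.000127). The list medians in these latter comparisons were 0.04 and -0.04, against -0.002 and 0.0003 over all tested genes, the values the medians of the lists below are to be read against.

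The list held 7 relatives of Asb2 with the same ankyrin-repeat and SOCS-box build, a subset chosen after its values were seen, as were the other families below. In TAC WT against Sham WT 4 of these 7 fell and none rose: Asb10 at -0.45, Asb14 at -0.62, Asb15 at -0.90 and Asb18 at -0.47. Relative to TAC WT, 4 were higher in TAC KO and none lower: Asb10 at 0.47, Asb12 at 0.34, Asb14 at 0.53 and Asb18 at 0.43. Asb8 and Asb11 passed in neither comparison. Of 6 other F-box genes in the list, 3 fell in TAC WT against Sham WT and 4 rose in TAC KO against TAC WT, among them Fbxo21 (-0.46 and 0.42) and Fbxo31 (-0.37 and 0.60). Of 5 other Trim genes, 1 rose and none fell in TAC WT against Sham WT, and none was higher and 2 were lower in TAC KO than in TAC WT. Of 4 Klhl genes, 1 rose and 1 fell in the former comparison, and 1 was higher and 2 were lower in the latter. These comparisons share the TAC WT libraries.

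The counts of this and the other gene lists are to be read against 19.7%, 33.0% and 27.6% of all tested genes called in TAC WT against Sham WT, TAC KO against TAC WT and TAC KO against Sham WT. Counts and medians of the lists, gene families, cell markers and Fbxo44 neighbours come from the main fit, which kept the GC and length trends. They were not repeated with those trends removed. Among 35 tested genes for cullins, ubiquitin and its activating and conjugating enzymes, 3 rose and none fell in TAC WT against Sham WT, led by the conjugating enzyme genes Ube2g1 at 0.28 (adjusted p = 0.00436) and Ube2g2 at 0.36 (0.0098). Between TAC KO and TAC WT 3 were higher and 4 lower in TAC KO, with the polyubiquitin gene Ubb higher by 0.29 (0.00394) and the activating enzyme gene Uba6 lower at -0.42 (0.00223). Against Sham WT, 6 were higher and 3 lower in TAC KO, and the scaffold of Asb2 ligases, Cul5, was lower at -0.21 (0.0327). The median log2 changes in the 3 comparisons were 0.02, 0.02 and 0.06. Among 30 tested deubiquitinases, which remove ubiquitin, 7 rose and none fell in TAC WT against Sham WT, and 3 rose and 12 fell in TAC KO against TAC WT. Otud1 measured 27.6 ± 0.753 CPM in Sham WT, 77.3 ± 26.7 CPM in TAC WT and 27.7 ± 10.8 CPM in TAC KO (SD, n = 4). Against Sham WT, 4 deubiquitinases were higher and 5 lower in TAC KO. Their medians were 0.08, -0.135 and -0.0083.

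Upstream regulators of atrophy ligases were listed as 40 genes, 38 of them tested. In TAC WT against Sham WT 7 rose, 12 fell and 19 did not pass. The TAC KO libraries had 10 higher and 8 lower than TAC WT, with 20 not passing, and in TAC KO against Sham WT 7 rose, 11 fell and 20 did not pass, with medians of -0.05, 0.03 and 0.0037. Akt1, the kinase that keeps FoxO factors out of the nucleus, measured 154 ± 4.44 CPM in Sham WT, 121 ± 3.65 CPM in TAC WT and 245 ± 9.90 CPM in TAC KO (SD, n = 4). It was higher in TAC KO than in TAC WT by 1.02 (SE 0.05, adjusted p = 4.27e-08), and Akt2 was higher by 0.37 (0.00241). The receptor gene Igf1r, upstream of Akt, was higher in TAC WT than in Sham WT by 0.45 (0.00144) and lower in TAC KO than in TAC WT at -0.77 (3.4e-05). Foxo1, Foxo3 and Klf15 were picked for their known place upstream of Trim63 and Fbxo32. Foxo3 fell by 0.45 in TAC WT (adjusted p = 0.0364) and was higher in TAC KO than in TAC WT by 0.56 (0.00804). Klf15, a glucocorticoid-induced factor, fell by 0.75 in TAC WT (0.017) and was higher in TAC KO by 0.74 (0.0117). Fkbp5, from the same list, did not pass in either comparison, at 0.62 (0.1135) and 0.09 (0.811). Foxo1 was lower in TAC KO than in TAC WT at -0.24 (0.021), and so was the glucocorticoid receptor gene Nr3c1 at -0.44 (0.00118). Set against Sham WT, Foxo1 was lower in TAC KO at -0.33 (0.00408) and Foxo4 at -0.51 (0.000998). Foxo3 did not pass there, at 0.11 (0.588).

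The companion degradation route, autophagy, was listed as 27 genes, all tested. In TAC WT against Sham WT 5 rose and 1 fell, in TAC KO against TAC WT 10 rose and 2 fell, and in TAC KO against Sham WT 9 rose and none fell. The median log2 changes were 0.045, 0.14 and 0.12 in that order. Ulk1, the kinase that starts autophagy, was higher in TAC KO than in TAC WT by 0.66 (adjusted p = 0.0006), and Gabarap, a membrane-bound autophagy tag, by 0.28 (0.000859). Pink1, which marks damaged mitochondria, fell by 0.46 in TAC WT (0.000719) and was higher in TAC KO by 0.45 (0.0006).

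Reported substrates and sarcomere partners of the ligases were listed as 36 genes, all tested. In TAC WT against Sham WT 7 rose and 5 fell, in TAC KO against TAC WT 5 rose and 10 fell, and in TAC KO against Sham WT 8 rose and 6 fell, with medians of 0.07, -0.06 and 0.03. Among Asb2 and Fbxl22 partners, the filamin gene Flnc rose by 1.15 (adjusted p = 9.44e-05) in TAC WT. Among MuRF1 partners, the troponin gene Tnni3 fell by 0.36 in TAC WT (0.00241) and was higher in TAC KO by 0.31 (0.00461), and the creatine kinase gene Ckm was higher in TAC KO by 0.65 (8.22e-05). The myosin heavy chain genes went opposite ways in TAC WT against Sham WT, Myh7 at 2.73 (7.72e-05) and Myh6 at -0.30 (0.0127). Myh6 was also lower in TAC KO than in Sham WT, at -0.34 (0.00599). These are RNA levels, and protein turnover was not measured. In the p53 pathway around Mdm2, 22 genes were tested. In TAC WT against Sham WT 4 rose and 1 fell, in TAC KO against TAC WT 2 rose and 4 fell, and in TAC KO against Sham WT 5 rose and 3 fell, with medians of 0.065, 0.0061 and 0.12. Mdm4, the partner of Mdm2, was lower in TAC KO than in TAC WT at -0.47 (0.000998), and the growth arrest gene Gadd45a was higher by 1.73 (7.46e-05).

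For each of the 7 ligase genes called in at least 1 comparison, the 3 genes with the most similar profile were found by the root mean square difference of log2 CPM over the 12 libraries, each gene centred on its own mean. The closest to Asb2, whose own root mean square deviation was 0.296, were Mfsd4b3 (0.083), Asb10 (0.085) and Steap3 (0.085). The closest to Fbxo44 were Prepl (0.188), Fgfbp3 (0.206) and Akt1 (0.215), against an own deviation of 0.594. Zscan25, Ginm1 and Nup37 lay nearest to Trim63 (0.081 to 0.096), and Slc25a12, Osbpl1a and Dlst nearest to Trim55 (0.057 to 0.064). Poc1a, Psmd8 and Guk1 lay nearest to Trim54 (0.072 to 0.088). Lrrc2, Baiap2l1 and Mical2 lay nearest to Fbxo40 (0.119 to 0.128), and Nufip2, Sms and Gk nearest to Fbxo30 (0.115 to 0.133). The 12 points share libraries and depth, and the values describe these samples only.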

How the data were processed

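The authors deposited counts as whole numbers for each gene, in 1 file per library. The submitters' processing notes name the build GRCm38 and the tools DESeq2, MultiQC 1.7, StringTie 1.3.5, featureCounts 1.6.4, STAR, Trim Galore 0.5.0, FastQC 0.11.8 and bcl2fastq, with no role or settings. Per the labels, RNA was column-purified, 250 ng was enriched for poly(A) RNA and libraries were made with a stranded kit. The annotation release, counting settings and strand setting are not given in the sources used here. Unspecified counting of overlapping or repeated sequence could move Fbxl22, Fbxo32 and Mdm2.

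Identifiers were matched to GENCODE names, with 67 of 54146 records unmatched. All 12 libraries entered 1 fit in edgeR 4.0.16 (R 4.3.3) with TMM scaling, filterByExpr and the quasi-likelihood F-test, with Benjamini-Hochberg adjustment over 15477 genes and a threshold of 0.05. Standard errors came from the same fit. Library totals of 26288519 to 35945770 counts set the precision. Replicate pairs within a group differed by 4.4 to 35.8 in chi-square per degree of freedom, so no library was a copy of another in its group. Pairs across groups were not compared in this way. Alternatives were DESeq2 1.42.0, upper-quartile or RLE scaling, limma 3.58.1 voom with quality weights, a filter of at least 1 CPM in 4 libraries or no filter, compared groups alone, GC and length trends removed (splines), and each library left out. The fit was tested on simulated data.

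The 10 genes, the lists and the motifs were chosen with earlier results of these data known. Named genes are the 10 ligases, up to 3 called genes with the smallest p in each direction, list and comparison, and the 3 most similar profiles per called ligase. Genes named outside this rule were chosen after their values were seen or for their known role: relatives of Asb2, other F-box genes, Foxo1, Foxo3, Klf15, Fkbp5, Fbxo44 neighbours and cell markers.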

Additional observations from a re-analysis of the deposited data

Results flagged for a closer look

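In 3 of the 30 groups of 4 libraries (10 genes in 3 groups each), 1 library lay apart from the others of its group by Dixon's criterion, which chance alone meets in about 1 of 20 groups. Sham WT 1 was low for Trim54, at 235.3 CPM with the nearest other Sham WT library at 275.1 CPM. The same library was high for Trim55, at 109.9 CPM with the nearest at 91.5 CPM. Sham WT 2 was high for Fbxo40, at 291.7 CPM with the nearest at 264.9 CPM. Without Sham WT 1 the Trim55 decrease in TAC WT was -0.19 and no longer passed (adjusted p = 0.098, edgeR, the highest of 16 alternatives whose lowest was 0.00873), while Trim54 and Fbxo40 remained called in TAC WT against Sham WT in every fit with 1 library left out.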

How the results depend on the processing

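No paired analysis was possible because the replicate numbers follow accession order and pair nothing. Over 16 alternatives and 3 comparisons, the 10 genes gave 480 values, of which 432 kept their direction and side of the threshold, 24 lost the call, 16 gained one and 8 changed sign. The sign changes were Trim54 in TAC KO against TAC WT with GC and length trends removed (-0.0255), and, in TAC KO against Sham WT, Fbxo32 (0.1123), Fbxo30 (0.0648) and Asb2 (-0.0362) with those trends removed. With 1 library left out, TAC KO against Sham WT ran from -0.0699 to 0.0483 for Trim55 (above 0 without Sham WT 1), from -0.1315 to 0.0975 for Fbxo32 (above 0 without Sham WT 2, at 0.0413, or TAC KO 3) and from -0.0249 to 0.1706 for Fbxl22 (below 0 without TAC KO 2). None of these was called, and the cause was not tested. With 1 library left out, 3 to 6 of the 10 genes were called in TAC WT against Sham WT, 3 of them without Sham WT 1, Sham WT 2, TAC WT 3 or TAC WT 4. In TAC KO against TAC WT it was 4 to 8, and in TAC KO against Sham WT 2 each time. Other alternatives gave 5 to 7, 4 to 8 and 2. Over all tested genes, the numbers called (3051, 5110 and 4273 of 15477 in the main fit) stayed within 1.5 times under each alternative. With 1 library left out they were 2251 to 3474, 3963 to 5080 and 3070 to 3851. Other alternatives gave 2960 to 4288, 4019 to 5225 and 3264 to 5200. Fbxo32 and Fbxo44 have the fewest counts and so the most counting error. Using the longest transcript for levels per length was added after the data were seen.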
